A study of Mus musculus with 12 samples.

Results

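The genes described are those of the cytosolic ribosomal proteins, chosen by symbol alone. They are genes named in the deposited window table as Rpl or Rps with a number, plus Rplp0, Rplp1, Rplp2 and Rpsa. After the number the rule allows at most 1 letter (a, x, y or l) and further digits, so a symbol such as Rpl36al falls outside. The rule found 72 genes of 16092 named in the table. They held 182 of the 67822 windows of 1000 bp, of which 85 were annotated as promoter windows, 59 as intergenic, 32 as intronic, 5 as transcript ends and 1 as exonic. A promoter window was present for 70 genes, and each gene was represented by the promoter window nearest its transcription start site (TSS). Rps15a and Rps28 had no promoter window.

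The libraries came from mouse forebrain (age and sex not labelled), from cells isolated with CD11b magnetic beads after myelin removal, a selection for microglia, the resident macrophages of the brain. Wild-type mice had the C57BL/6N background. The other genotype, labelled Nlrp3-/-, was a Cias1 knockout from Millennium Pharmaceuticals that lacks the sensor protein of the NLRP3 inflammasome. Each genotype had 3 H3K27ac chromatin immunoprecipitation (ChIP) libraries and 3 input libraries, where input is the same kind of sonicated chromatin without the antibody. All 12 libraries share the cell isolation and fixation, the H3K27ac libraries share the antibody serum, and no treatment is labelled. The labels do not say whether the 3 libraries of a group are separate or pooled animals, so p-values measure the spread between these libraries, part of which may be technical. The background strain of the knockout is not given separately.

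H3K27ac libraries held 3726550 to 5028129 tags, with 39.1% to 46.1% in windows, and inputs 3287009 to 6961590, with 8.31% to 9.32% in windows. At the Nlrp3 start, a window held 180, 180 and 195 tags in wild type against 1, 0 and 16 in the knockout, in accord with the genotype labels. Another window near an Nlrp3 start held 138, 91 and 119 tags against 17, 20 and 43. In each window knockout replicate 3 was the highest of the knockout libraries. For the 19 of 20 microglia markers with a promoter window, the median ratio of wild-type H3K27ac to input was 8.40 (2.34 to 28.4 times). Of the markers of other cell types, promoter windows were present for 1 of 8 neuron (1.44 times input), 1 of 7 astrocyte (0.989 times), 1 of 9 lymphocyte (1.70 times) and 0 of 7 monocyte and neutrophil genes. They were also present for 4 of 9 oligodendrocyte (0.876 to 7.55 times), 2 of 7 endothelial and mural (1.25 to 3.78 times) and 2 of 6 border macrophage genes (0.616 to 1.40 times). In the knockout the median ratios were 12.6 for microglia, 0.833 for neuron, 1.33 for astrocyte and 0.852 for lymphocyte markers. They were 1.52 for oligodendrocyte, 3.07 for endothelial and mural and 2.50 for border macrophage markers. Wild-type replicate 1 held 0 tags at 3 Y-linked promoters (Eif2s3y, Uty, Ddx3y), where the other 5 H3K27ac libraries held 183 to 239. Its input also held 0. The 3 wild-type libraries therefore do not all come from the same animals. All 3 knockout H3K27ac libraries held Y-linked tags (206, 183 and 239), so sex was not balanced between the genotypes.

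Cytosolic ribosomes are built from ribosomal RNA and a fixed set of proteins, most of them present once per ribosome, in a large subunit that makes the peptide bond and a small subunit that reads the mRNA. The genes are active in every growing cell and their promoters are usually of the CpG-rich, TATA-poor kind. Their mRNAs start with a C followed by a run of pyrimidines, the 5′ terminal oligopyrimidine (TOP) motif, through which mTORC1 and LARP1 control their translation. H3K27ac, acetylation of lysine 27 of histone H3, marks active promoters and enhancers. It reports on chromatin, not on the amount of mRNA or protein.

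Promoter letters came from RefSeq on GRCm38.p6, 250 bases before to 50 after each start. Of the 70 genes 50 matched an entry on the same chromosome, and for 47 of these the RefSeq start was the start used in the window table. The first set of stretches shows the pyrimidine tract near the start. Rplp2, Rps6, Rpl35 and Rps21 begin on a C with at least 4 pyrimidines after it, and Rps26 has a tract just after its RefSeq start. Each stretch runs 5′ to 3′ from 100 bases before the start to 20 bases from it onward. Capitals mark matches of the GC box GGGCGG, the ETS core CCGGAAG or the motif ATGGCGG on either strand. They also mark the TATA box TATAAA from 40 to 20 bases before the start, pyrimidine hexamers near the start, and the run from a C start. Each match is marked where it lies wholly within the stretch.
Rplp2, chr7:141447551-141447670, plus strand: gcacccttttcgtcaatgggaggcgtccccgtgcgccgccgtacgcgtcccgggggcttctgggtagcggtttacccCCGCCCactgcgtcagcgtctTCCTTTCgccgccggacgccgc
Rps6, chr4:86857348-86857467, minus strand: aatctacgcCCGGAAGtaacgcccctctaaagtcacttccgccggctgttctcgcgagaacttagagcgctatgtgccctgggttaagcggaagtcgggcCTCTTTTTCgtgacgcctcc
Rpl35, chr2:39005112-39005231, minus strand: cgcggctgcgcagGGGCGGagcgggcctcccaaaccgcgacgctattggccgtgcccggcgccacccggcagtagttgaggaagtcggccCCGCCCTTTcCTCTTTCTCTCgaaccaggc
Rps21, chr2:180257279-180257398, plus strand: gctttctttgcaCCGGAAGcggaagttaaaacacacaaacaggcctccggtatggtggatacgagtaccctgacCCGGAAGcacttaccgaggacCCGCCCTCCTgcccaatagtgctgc
Rps26, chr10:128626487-128626606, minus strand: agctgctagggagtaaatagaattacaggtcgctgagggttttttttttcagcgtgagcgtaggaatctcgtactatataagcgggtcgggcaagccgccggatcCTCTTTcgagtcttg

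The second set covers genes on which the measurements turn. Rpl10 and Rpl19 were among the highest in H3K27ac, and Rplp0 had the largest fold change between genotypes among the 70 representative promoter windows. Rpl22l1 held the one TATAAA match from 40 to 20 bases before a start, and Rpl36a and Rps24 were the lowest in H3K27ac. The GC box of Rpl10, Rplp0, Rpl22l1 and Rpl36a lies in the 300 bases searched but outside the stretch shown.
Rpl10, chrX:74270716-74270835, plus strand: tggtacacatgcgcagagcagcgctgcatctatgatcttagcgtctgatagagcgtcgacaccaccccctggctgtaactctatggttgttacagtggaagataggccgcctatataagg
Rpl19, chr11:98026824-98026943, plus strand: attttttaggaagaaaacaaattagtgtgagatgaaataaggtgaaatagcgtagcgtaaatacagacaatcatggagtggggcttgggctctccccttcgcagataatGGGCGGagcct
Rplp0, chr5:115559367-115559486, plus strand: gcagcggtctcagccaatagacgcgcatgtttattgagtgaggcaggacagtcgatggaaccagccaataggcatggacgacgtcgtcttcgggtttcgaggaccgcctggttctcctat
Rpl22l1, chr3:28805408-28805527, plus strand: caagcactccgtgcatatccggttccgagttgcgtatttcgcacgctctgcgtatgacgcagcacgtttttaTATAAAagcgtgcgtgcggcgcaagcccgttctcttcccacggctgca
Rpl36a, chrX:134585554-134585673, plus strand: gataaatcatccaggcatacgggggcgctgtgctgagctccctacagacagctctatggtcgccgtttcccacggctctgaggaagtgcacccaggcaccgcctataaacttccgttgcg
Rps24, chr14:24490578-24490697, plus strand: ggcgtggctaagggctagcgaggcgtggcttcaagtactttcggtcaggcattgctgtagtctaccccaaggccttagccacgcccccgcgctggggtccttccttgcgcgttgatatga

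The GC box, GGGCGG on either strand, was found in 32 of 50 promoters (64.0%), against 68.2% of 8407 genes with a promoter window and 35.7% of the 32851 promoters of the RefSeq table. CCGGAAG, the core bound by ETS factors such as GABP, was found in 18 (36.0%), against 19.4% and 8.86%. ATGGCGG, of the type bound by YY1, was found in 10 (20.0%), against 8.90% and 4.05%. It shares the letters GGCGG with the GC box, but has a T before them where the GC box has a G. The same GGCGG therefore cannot count for both, and the sites can overlap only at their end Gs. TATAAA on the coding strand, 40 to 20 bases before the start, was in 1 promoter, that of Rpl22l1 (2.00%, against 1.12% and 1.99%). A start on C followed by at least 4 pyrimidines was found in 8 (16.0%), against 2.31% and 2.51%. These 8 were Rpl14, Rpl28, Rpl35, Rpl38, Rplp2, Rps6, Rps10 and Rps21.

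A second search was chosen after the sequences were seen, because in several genes a tract lay near the RefSeq start without beginning on it. In Rps26 the tract lay just after the start, and in Rps9 it ran across the start. One of the hexamers CTCTTT and CCCTTT and TCCTTT and TTCTTT, on the coding strand, lay within 30 bases of the start in 16 promoters (32.0%), against 5.83% of genes with a promoter window and 8.50% of the table. Of the 8 genes with a C start 6 also had such a hexamer. The median GC content was 57.5%, between that of genes with a promoter window (61.7%) and that of the table (52.7%), and the observed to expected CpG ratio was 0.866, against 0.784 and 0.384. All these matches are descriptions of letters. H3K27ac in wild type was a median of 11.4 CPM (tags per 1000000 tags of a library) with and 7.83 without a GC box, 8.45 with and 10.3 without CCGGAAG, 11.5 with and 9.97 without ATGGCGG, 9.73 with and 10.1 without a C start before pyrimidines, and 12.9 with and 9.83 without the hexamers.

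**Figure D1:**
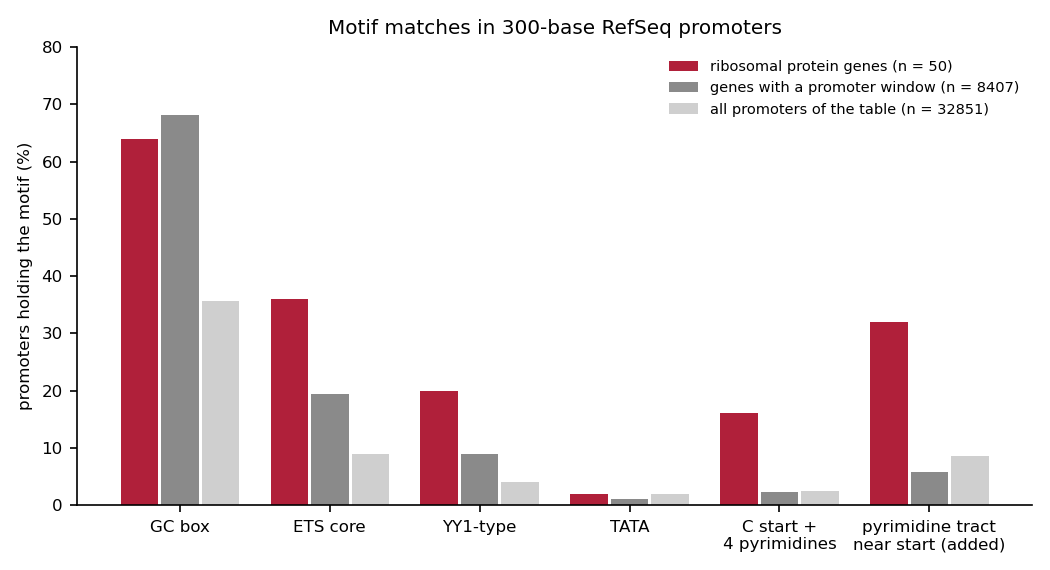
Share of promoters (%) that hold each motif, in 50 ribosomal protein genes, 8407 genes with a promoter window and all 32851 promoters of the RefSeq table. The GC box is as frequent in the red bars as in other genes with a window (64.0% and 68.2%), and the pyrimidine tract stands at 32.0% against 5.83%. The search for that tract was chosen after the sequences of the ribosomal protein genes were seen.

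Levels are given as tags per 1000000 tags of a library (CPM) in the representative promoter window, as mean ± SD with n = 3. In wild type the genes had a median of 11.4 CPM, against 5.89 over all 10696 genes with a promoter window. Of the 70 genes 57 stood above that median, 33 were in the top 25%, 14 in the top 10% and 0 in the bottom 25%. The range ran from 2.83 to 42.9 CPM, a 15.2-fold spread within one functional class. By library the median over the 70 genes ran from 10.5 to 12.2 CPM in wild type and from 9.24 to 12.1 CPM in the knockout, against 5.28 to 6.18 over all genes. The chromatin was from bulk cells, so fewer cells carrying the mark and less of the mark per cell cannot be told apart.

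The highest genes were Rpl21, Rpl10, Rpl19, Rpl10a, Rpl30 and Rps14. Rpl21, of the large subunit, held 189, 185 and 156 tags in the wild-type libraries and 180, 149 and 175 in the knockout, at 42.9 ± 7.09 and 35.0 ± 5.07 CPM. Rpl10, an X-linked gene whose product joins the large subunit late in its assembly, held 146, 113 and 190 tags and 139, 172 and 165, at 36.4 ± 10.2 and 32.8 ± 1.87 CPM. Rpl19, whose protein helps to bridge the subunits, was at 34.6 ± 2.12 and 33.6 ± 7.46 CPM. In all 3 genes the genotypes overlapped, and the SDs were large enough that their order among themselves is not resolved. Rpl10a, of the mobile stalk by which spent tRNA leaves, stood at 33.1 ± 9.23 and 34.5 ± 3.86 CPM. Rpl30 was at 29.3 ± 8.93 and 24.3 ± 3.91 CPM and Rps14, of the small subunit, at 28.01 ± 4.01 and 24.3 ± 2.21 CPM.

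The lowest genes were Rps24, Rpl36a, Rps3a1, Rps4x, Rps27l and Rpl39. Rps24 held 18, 9 and 7 tags in wild type against 12, 18 and 26 in the knockout (2.83 ± 1.74 and 3.84 ± 1.33 CPM). Rps3a1 held 12, 9 and 18 tags and 10, 36 and 27 (3.16 ± 1.13 and 4.95 ± 2.52 CPM). At tags this few, neighbours in the order do not differ beyond their spread. Rps24, Rps3a1 and Rps4x are small-subunit proteins, Rpl36a and Rpl39 belong to the large subunit, and Rps27l is a paralog of Rps27.

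**Figure D2:**
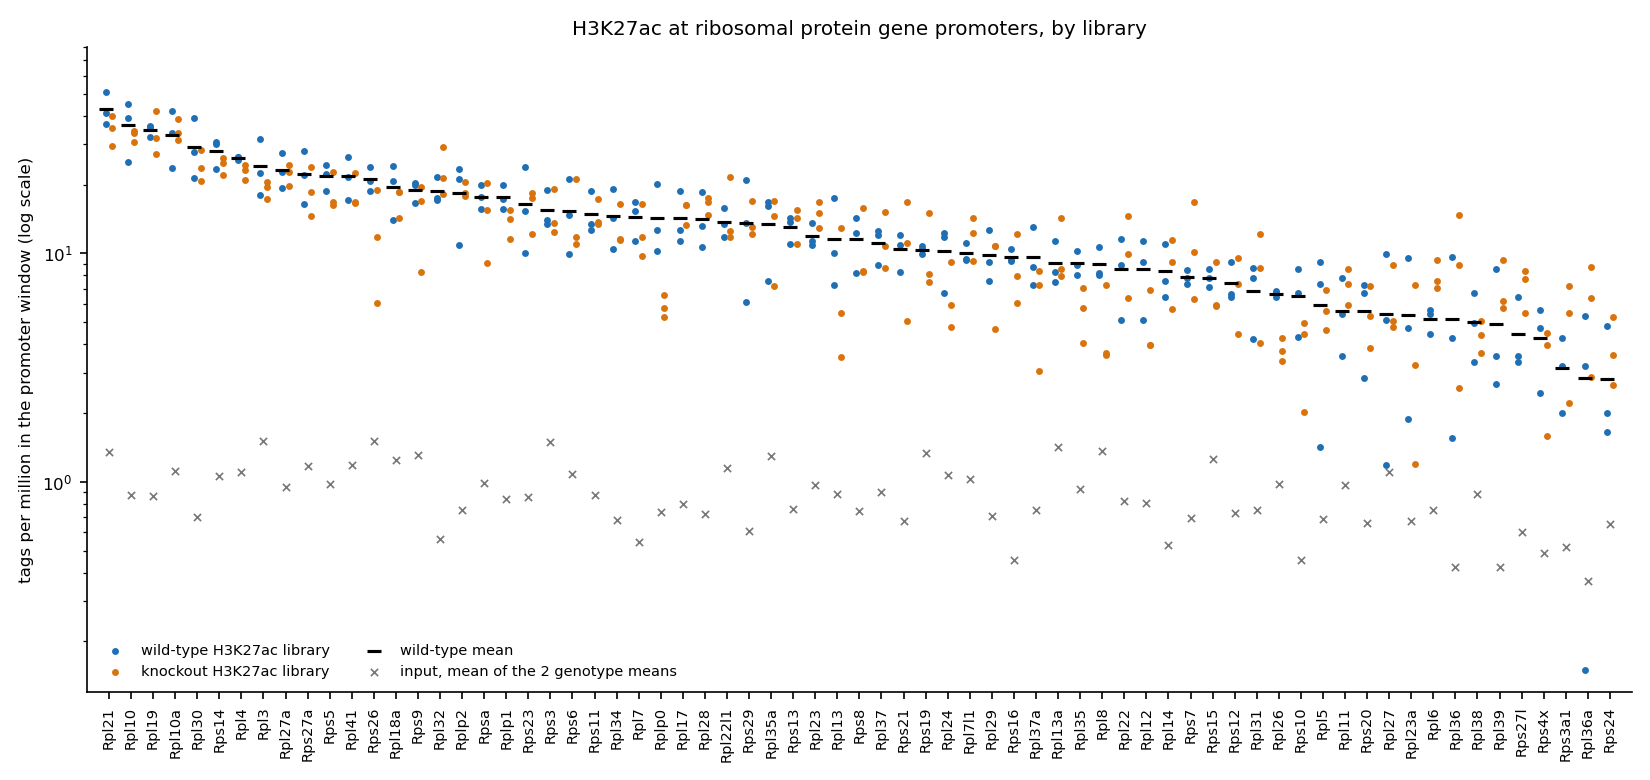
Tags per 1000000 in the promoter window nearest the start (log scale) for 69 of the 70 genes in order of the wild-type mean (black bar), one point per library, with input as crosses. Every gene's H3K27ac means lie above its input means, points of both genotypes overlap for most genes, and the scatter widens toward the low end. One library at 0 (Rpl36a, wild-type replicate 3) is drawn at 0.15.

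Members on chromosome X were Rpl10, Rpl36a, Rpl39 and Rps4x. Rpl36a held 12, 24 and 0 tags in wild type against 13, 32 and 43 in the knockout. Rpl39, whose protein lines the exit tunnel of the large subunit, held 10, 16 and 36 tags and 28, 29 and 46. Rps4x, of the small subunit, held 21, 11 and 20 and 18, 8 and 22. Wild-type replicate 1, the library without Y-linked tags, was in the middle of its group for Rpl10 and Rpl36a, lowest for Rpl39 and highest for Rps4x. Over all windows its X-linked tags were 1.34% of autosomal tags, against 1.18% to 1.22% in the other H3K27ac libraries. Without it the log2 fold change of Rpl36a was 1.12 in place of 1.08, that of Rpl39 0.27 in place of 0.56, that of Rpl10 −0.09 in place of −0.13 and that of Rps4x −0.08 in place of −0.30.

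By role, the 39 large-subunit genes had a median of 10.3 CPM in wild type and the 25 small-subunit genes 11.6 CPM, each with a wide range (2.85 to 42.9 and 2.83 to 28.01 CPM). The genes of the P-stalk, Rplp0, Rplp1 and Rplp2, lay closer together at 14.3 ± 5.14, 17.6 ± 2.15 and 18.5 ± 6.66 CPM. Their proteins form the flexible arm that recruits the elongation factors, with Rplp0 as its anchor. Of 7 paralog copies listed, Rpl7l1, Rpl22l1 and Rps27l had a promoter window, at 9.99 ± 0.99, 13.7 ± 2.03 and 4.44 ± 1.73 CPM. Their parents Rpl7 and Rpl22 stood at 14.5 ± 2.86 and 8.53 ± 3.26 CPM, so in mean Rpl22l1 was above its parent and Rpl7l1 below. Rpl22 had 19, 40 and 49 wild-type tags and Rpl22l1 59, 53 and 57, although a start of Gm32950 lies in the same window. Rpl3l, Rpl10l, Rpl39l and Rps4l had no window. At least 6 genes share their window with the start of another RefSeq gene: Rpl12, Rpl22, Rpl22l1, Rpl35a, Rps10 and Rps13. The RefSeq promoter table searched had a matching entry for 50 of the 70 members, so further shared starts may be missed.

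Genes with known roles outside the ribosome lay across the range. Rpsa, also known as a laminin receptor, was at 17.7 ± 2.14 CPM in wild type and 14.95 ± 5.65 in the knockout. Rps6, the substrate of S6 kinase, was at 15.3 ± 5.66 and 14.6 ± 5.69, and Rps19, a gene often mutated in Diamond-Blackfan anaemia, at 10.4 ± 0.41 and 10.2 ± 4.15. Rpl5 and Rpl11, whose proteins bind Mdm2 when ribosome assembly fails, were at 5.96 ± 4.04 and 5.70 ± 1.14 and at 5.59 ± 2.11 and 7.27 ± 1.30. Rpl5 held 34 and 33 tags in wild-type replicates 1 and 2 and 6 in replicate 3. In each of these 5 genes the genotypes overlapped.

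H3K27ac was compared with input in each genotype to see which promoters carried the mark above background. With every window in the fit, all 70 promoters were called higher than input in wild type and all 70 in the knockout, where called means an edgeR quasi-likelihood p under 0.05 after Benjamini-Hochberg adjustment. The same was true of 73.6% of all promoter windows in wild type and 76.8% in the knockout. The enrichment over input had medians of 8.52 (wild type) and 9.04 times (knockout) over the 70 genes, against 5.10 and 5.63 times over all genes with a promoter window. It ran from 2.91 times at Rps24 to 27.3 times at Rpl19 in wild type. The call nearest the threshold in wild type was Rps24, whose log2 ratio to input was 2.10 with an SE of 0.89 (edgeR adjusted p = 0.0368), and in the knockout Rpl26 (edgeR adjusted p = 0.0179). Inputs held between 0 and 14 tags in the representative windows of the genes named here.

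With the usual abundance filter 64 of 70 promoters entered the wild-type fit and 68 the knockout fit, and each of them was called (96% and 95.9% of all promoter windows in those fits were), but that filter keeps windows through their H3K27ac tags. Without wild-type replicate 1, 2 or 3 the filter kept 38, 34 and 37 promoters, all of them called, as were 99.5% of all promoter windows kept in each case. With TMM scaling in place of tag totals, which sets the typical window equal in ChIP and input, 12 of the 64 and 9 of the 68 were called higher, against 16.7% and 19.1% of all promoter windows in those fits.

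Away from promoters the mark was weaker. The 97 non-promoter windows assigned to these genes had a median of 1.43 CPM and 1.78 times input in wild type, and 29 genes had a single window. Rplp1 had 18 windows, all but its promoter window intergenic, and Rplp0 had 10, Rpl31 7 and Rpl29 6. Both site lists, that of wild type and that of the knockout, held 142 of the 182 windows. The wild-type list had 28 others and the knockout list 12. Of the 70 representative windows 65 were in both lists.

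The comparison of the knockout with wild type asked whether loss of Nlrp3 went with another H3K27ac level at these genes. No member window and no member gene was called. The fit over windows tested 128 of the 182, all 85 promoter windows among them, and called 0 (0.0595% of all 40370 windows tested and 0.0287% of promoter windows were called). DESeq2, with all 182 windows tested, also called 0 (0.104% of all windows), with 11 at an unadjusted p under 0.05 (5.76% of all windows). The smallest edgeR adjusted p of a promoter window was 0.599, at Rplp0.

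The log2 fold changes of the 70 representative windows had a median of −0.06, with 26 positive and 44 negative, and ran from −1.27 (Rplp0) to 1.08 (Rpl36a). Over all 8330 representative windows tested the median was 0.0016 and 50.1% were positive. The median SE was 0.37. For 39 of the 70 genes the 95% confidence interval lay within 1 log2 unit of no change, and for 68 it included 0. For the other 31 genes a change of 1 log2 unit or more was not outside the interval. By edgeR, 3 of 85 promoter windows had an unadjusted p under 0.05 (3.66% of all promoter windows did), 2 of them representative, and in DESeq2 4 did (5.42% of all promoter windows). All libraries of the knockout lay above wild type in 1 of the 70, Rpl6 (4.98% of all promoter windows), and below in 7 (5.23%), namely Rpl4, Rpl8, Rpl26, Rpl35, Rplp0, Rplp1 and Rps26, on the TMM-scaled counts of the fit. On CPM by total tags the groups of Rps26 overlapped, which leaves 6 below and 1 above (4.76% and 4.85% of all promoter windows). All members were read from the same 6 libraries, and this is a description.

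**Figure D3:**
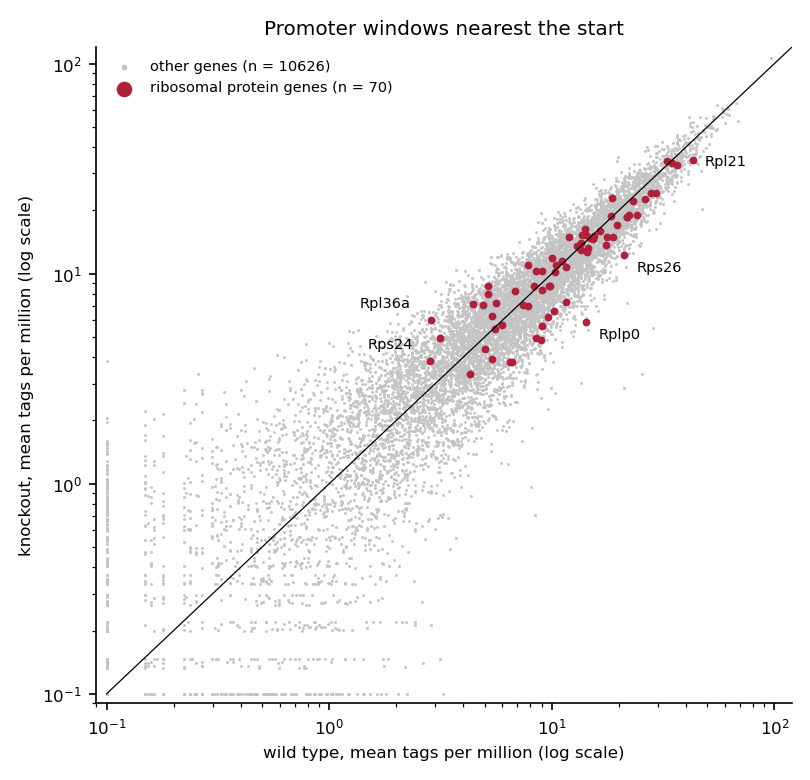
Mean tags per 1000000 in the representative promoter window of 10696 genes, wild type against knockout (log scales, values under 0.1 drawn at 0.1, line of equality), with the 70 ribosomal protein genes in red. The red points follow the line over a 15.2-fold range, and Rplp0 lies farthest below it.

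The order of the genes was alike in both genotypes. Spearman's rho between the wild-type and knockout means over the 70 genes was 0.897 and Pearson's r of the log2 levels 0.888, as descriptions across genes, which share libraries and window positions. Of the 10 highest genes in wild type 9 were among the 10 highest in the knockout, and of the 10 lowest 5. Between single libraries r over the 70 genes ran from 0.579 to 0.833. Rank moved by more than 20 places in 2 genes, Rplp0 (26 to 58) and Rpl36 (63 to 42).

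Among the 85 promoter windows of these genes, that of Rplp0 had the largest fold change. This window (chromosome 5, 115558880 to 115559880 on mm10, centred 87 bp before the start) held 47, 46 and 85 tags in wild type against 26, 33 and 26 in the knockout. The next window, centred 458 bp after the start in an intron, held 66, 57 and 105 and 36, 46 and 46. All wild-type libraries were above all knockout libraries in both, but the windows overlap by 455 bp and share tags, and wild-type replicate 3 was the highest in each. Mean levels were 14.3 ± 5.14 and 5.86 ± 0.65 CPM at the promoter, a 2.44-fold ratio, and 18.4 ± 6.09 and 8.81 ± 0.76 CPM in the intron. The log2 fold changes were −1.27 (SE 0.38, edgeR adjusted p = 0.599) and −1.04 (SE 0.33, edgeR adjusted p = 0.740), so neither passed. Without wild-type replicate 3 the promoter value was −0.97, and with DESeq2 −1.28 (DESeq2 adjusted p = 0.147, the lowest over the alternatives, which ran up to 1.00).

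Input tags at the Rplp0 promoter were 5, 7 and 1 for wild type against 6, 1 and 2 for the knockout. Relative to input, a setting added once the data had been seen, the fold change was −0.60 at the promoter and −0.27 in the intron window (edgeR adjusted p = 1.00 for each). Farther upstream, windows lying in introns of the neighbouring gene, which the table assigns to Rplp0, did not follow. At 24354 bp before the start the libraries held 40, 32 and 40 tags in wild type against 52, 49 and 28 in the knockout (log2 fold change −0.03, SE 0.39). At 23587 bp before it they held 40, 29 and 58 and 55, 44 and 39 (−0.09, SE 0.38). Summed within 100 kb, Rplp0 had −0.45 (SE 0.19, edgeR adjusted p = 0.802), and limited to windows within 1 kb of the start −1.13 (edgeR adjusted p = 0.413). Both sums count tags shared by the promoter and intron windows in each window. The partners of Rplp0 in the stalk had −0.36 (Rplp1, SE 0.29) and 0.05 (Rplp2, SE 0.30). Rplp1 held 58, 78 and 84 tags against 70, 71 and 57, and Rplp2 87, 95 and 46 against 81, 92 and 101.

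**Figure D4:**
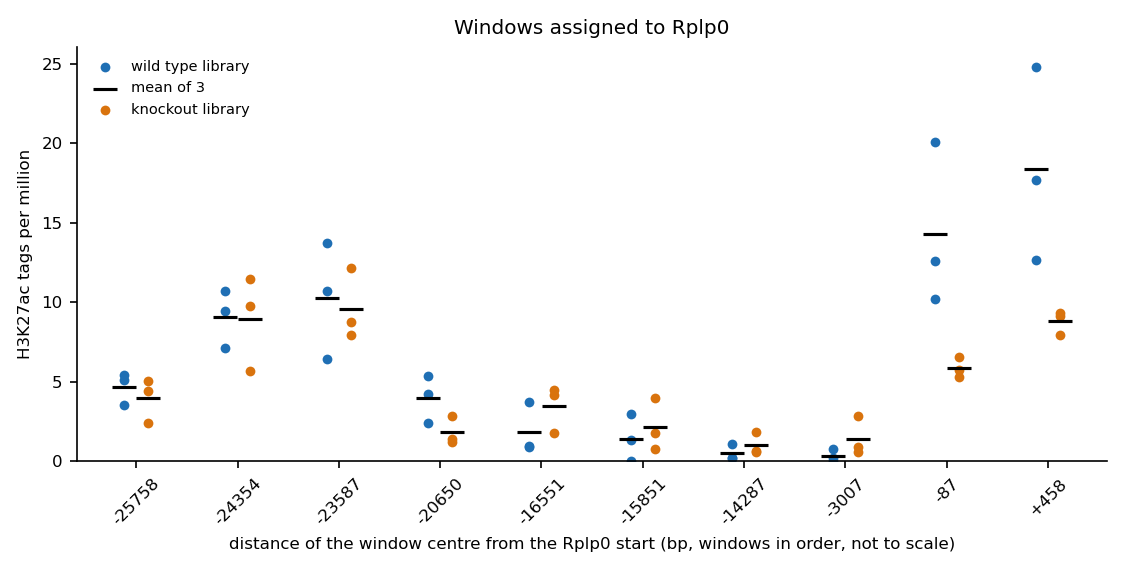
H3K27ac tags per 1000000 in the 10 windows assigned to Rplp0, in order of distance from its start, one point per library with group means as black bars. The genotypes separate in the windows at −87 and +458 bp, which overlap by 455 bp, and overlap in the windows about 24 kb upstream.

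Other promoters with large differences in the same direction were those of Rps26, Rpl8, Rps10, Rpl26 and Rpl12. Rps26, a small-subunit protein that touches the mRNA, held 70, 93 and 101 tags in wild type against 86, 59 and 30 in the knockout. The fold change was −0.82 (SE 0.32, edgeR adjusted p = 0.998), without knockout replicate 3 it was −0.55, and relative to input it was −0.17. Rpl8 held 30, 37 and 45 tags and 33, 18 and 18 (−0.90, SE 0.45), Rps10 16, 30 and 36 and 20, 25 and 10 (−0.80, SE 0.54). Rpl26 held 24, 30 and 29 against 17, 17 and 21 (−0.79, SE 0.51). Rpl12, at the base of the stalk, had −0.75 (SE 0.48). None of these passed.

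In the other direction the largest values were those of Rpl36a, Rpl36, Rps27l, Rps3a1, Rpl6 and Rpl39. Rpl36a had 1.08 (SE 0.75), and without wild-type replicate 3, the library at 0 tags, 0.48. Rpl36 held 36, 7 and 18 tags in wild type against 67, 13 and 44 in the knockout (0.81, SE 0.57), with replicate 2 the lowest of either genotype. Rps27l held 24, 15 and 15 against 38, 39 and 27 (0.70, SE 0.49). Rps3a1 had 0.68 (SE 0.63), Rpl6 0.65 (SE 0.45) and Rpl39 0.56 (SE 0.52). Rpl6 was the one gene here with separate groups, at 21, 20 and 23 tags against 32, 38 and 46, and its edgeR adjusted p was 0.998. Among genes with a mean at or above the median of tested windows, the library values spread most at Rpl36 (9.49-fold between the highest and the lowest CPM), Rpl13 (4.95-fold), Rpl37a (4.27-fold) and Rps26 (3.92-fold). For Rpl13 the tags were 27, 45 and 74 for wild type against 16, 65 and 27 for the knockout, so the spread lay within genotypes.

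**Figure D5:**
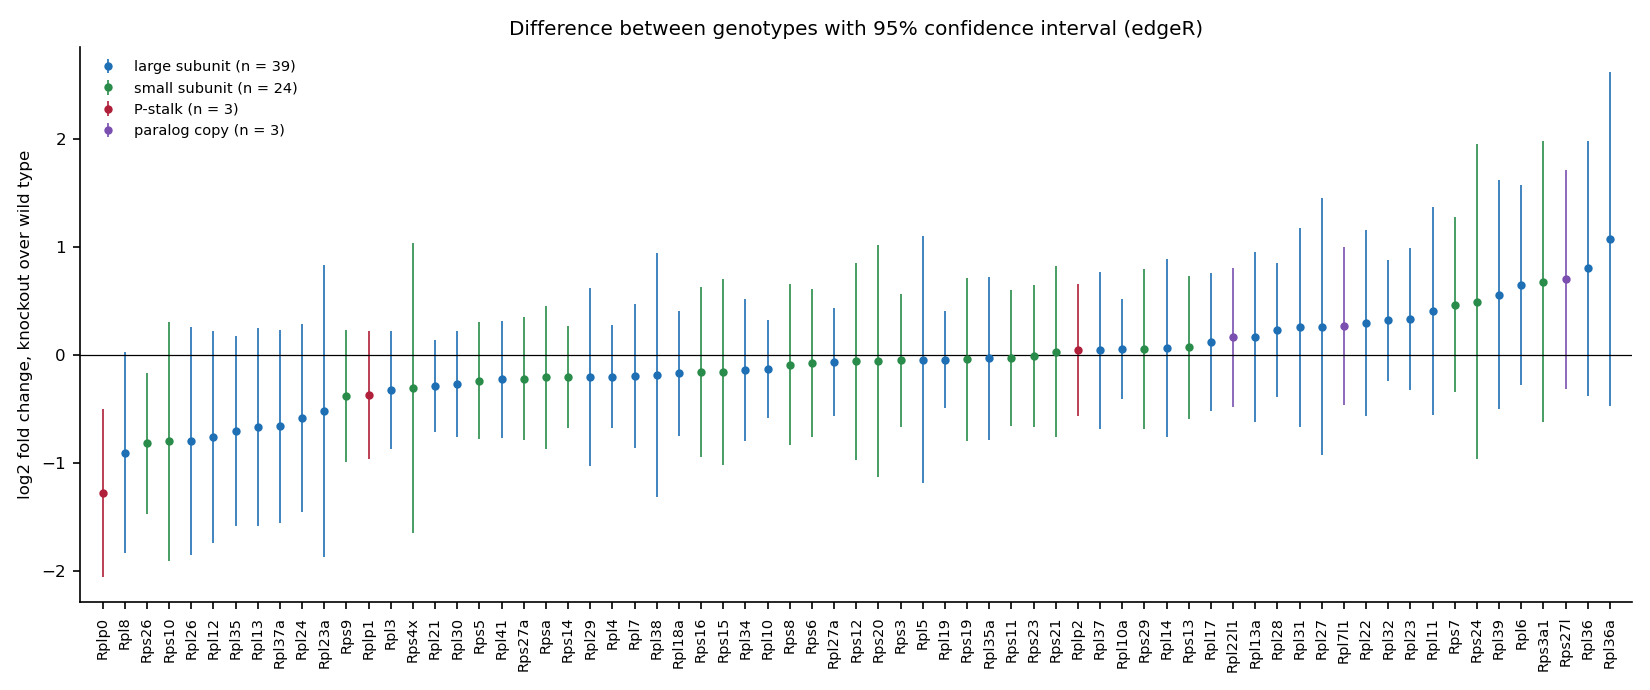
Log2 fold change of the knockout over wild type in the promoter window of 69 of the 70 genes, with 95% confidence intervals from edgeR, coloured by the part of the ribosome. All but 2 intervals, those of Rplp0 and Rps26, include 0, and the intervals are widest at genes with a low level such as Rpl36a.

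Outside promoters, 8 of all 128 tested windows of these genes had an unadjusted edgeR p under 0.05 (4.69% of all windows tested did), 5 of them not promoter windows. The smallest p of any member window was at an intergenic window 1531 bp before the start of Rps15a, listed in wild type alone, with 64, 42 and 12 tags in wild type against 6, 10 and 16 in the knockout (log2 fold change −2.10, SE 0.60, edgeR adjusted p = 0.535). Its groups overlapped, since wild-type replicate 3 fell among the knockout libraries, and without that library the value was −2.55 (edgeR adjusted p = 0.0573, the lowest over the alternatives, which ran up to 1.00). Without wild-type replicate 1 it was −1.49 (edgeR adjusted p = 0.989), and relative to input −1.69 (edgeR adjusted p = 0.999). The window over the Rps15a start, which the table calls intronic, held 44, 36 and 38 tags against 31, 36 and 48 (−0.24, SE 0.39). An intergenic window 211890 bp from Rplp1 held 83, 76 and 66 tags against 125, 117 and 168 (0.66, SE 0.26, edgeR adjusted p = 0.998). It is assigned to Rplp1 only as the nearest start and lies beyond the 100 kb used for the sums.

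Summed over windows within 100 kb, all 72 genes were tested and 0 were called (0.206% of 12148 genes were). An unadjusted edgeR p under 0.05 was found in 4 (5.77% of all genes), namely Rps15a (−0.90, SE 0.37), Rps26 (−0.79, SE 0.34), Rplp0 and Rpl30 (−0.43, SE 0.21), with a smallest edgeR adjusted p of 0.747, and DESeq2 also had 4 (4.92% of all genes) and called 0 (0.203%). The median was −0.10, with 27 positive and 45 negative, against 0.0013 over all genes. The higher genes with the smallest p were Rps27l (0.56, SE 0.36), Rpl36a (1.07), Rpl6 (0.65) and Rpl36 (0.81), of which the last 3 have a single window. Rps15a without wild-type replicate 1 was at −0.54, and within 1 kb of the start at −0.25. Rps28, measured by 1 exonic window 6870 bp away, held 29, 25 and 22 tags against 32, 79 and 19 (0.50, SE 0.47).

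The promoter windows of all members together took 0.269%, 0.277% and 0.284% of window tags in wild type against 0.246%, 0.259% and 0.271% in the knockout (0.277 ± 0.00725% and 0.259 ± 0.0125%, n = 3), and the groups overlapped. Windows within 100 kb took 0.349%, 0.348% and 0.354% against 0.312%, 0.327% and 0.334%, which do not overlap. Both shares count a tag in overlapping windows in each of them. Of tags in the representative promoter windows of all genes, those of members were 1.03%, 1.08% and 1.07% against 0.950%, 1.00% and 1.04%, which overlap. No test was set for these shares, and how often other gene sets separate was not examined. In inputs the promoter windows took 0.0769% to 0.0912%.

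For several ribosomal protein genes the table names the window over the start after another gene, so they fall outside the symbol rule. The windows over the starts of Rpl15 (named Nkiras1), Rpl18 (Sphk2), Rpl7a (Med22), Rpl9 (Lias), Rps18 (Vps52), Rps2 (Snhg9), Rps25 (Trappc4) and Rps27 (Rps27rt) were examined, with those of Fau, Rack1 and Rpl36al. Windows of these last genes carry their own symbols, which do not match the rule. These 11 windows had a median of 18.9 CPM in wild type, from 7.12 (Rpl15) to 29.5 (Rpl18), and 0 were called by edgeR, with a smallest unadjusted value of 0.260. Log2 fold changes ran from −0.27 to 0.33 with a median of −0.04. Rpl18 held 97, 148 and 125 tags in wild type against 110, 156 and 93 in the knockout, and Rps27 77, 110 and 120 and 123, 149 and 116. A window that covers the starts of both a ribosomal protein gene and a neighbour carries the mark of both and cannot be divided between them.

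Other genes of the translation machinery were read from lists chosen with earlier results of these data known, as sums within 100 kb beside the all-gene median of 0.0013. No gene of these lists was called by edgeR, and an unadjusted p under 0.05 was found for 0 translation factors, 0 other TOP mRNA genes, 2 biogenesis genes, 1 mTORC1 gene, 1 transcription factor and 7 mitochondrial ribosomal protein genes, where 5.77% of all genes tested had one. For translation factors 35 of 36 were tested (16 positive, median −0.02), and the smallest p was at Eif3k, a subunit of initiation factor eIF3 (−0.77, SE 0.49, edgeR adjusted p = 0.922). Of other TOP mRNA genes 13 of 15 were tested (4 positive, median −0.08), led by Snhg6, a host gene of small nucleolar RNA (−1.12, SE 0.56, edgeR adjusted p = 0.873). Of ribosome biogenesis genes 47 of 57 were tested (23 positive, median −0.01), led by Wdr75, a factor of early small-subunit assembly (−0.51, SE 0.19, edgeR adjusted p = 0.627).

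For mTORC1 and TOP regulators 24 of 28 were tested (16 positive, median 0.11), led by Rps6kb1, the S6 kinase (0.84, SE 0.38, edgeR adjusted p = 0.823). For factors with sites in ribosomal protein promoters 17 of 20 were tested (4 positive, median −0.14), led by Myc, which drives ribosome production (−0.44, SE 0.20, edgeR adjusted p = 0.804). Mitochondrial ribosomal proteins, which build the separate ribosome of that organelle, had 60 of 65 tested (25 positive, median −0.08), led by Mrpl3 (−3.58, SE 0.98, edgeR adjusted p = 0.230). Their promoters stood lower than the cytosolic set, at a median of 4.72 CPM and 3.72 times input in wild type, against 11.4 CPM and 8.52 times. Translation factors were close to the cytosolic set, at 10.7 CPM and 8.81 times input.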

How the data were processed

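H3K27ac and input chromatin of 2 genotypes of mouse microglia were compared, in 4 groups of 3 libraries set by the genotype, antibody and title labels. The authors deposited a table of raw tag counts for each window in each library. Per the file headers, HOMER's annotatePeaks.pl counted them without adjustment on mm10, in 1000 bp windows centred on merged sites from a directory named ATAC. The submitters' processing notes also name DESeq2. No source used here gives the aligner, its version, or the handling of duplicates and multi-mapping reads, and ribosomal protein genes have processed copies that share exon sequence. No molecular identifiers are described, so counts carry counting error at least.

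Levels were computed as tags over the library total in the table header (CPM), and ratios over input with 0.5 CPM added to both. Tests used edgeR 4.0.16 in R 4.3.3 (quasi-likelihood, TMM, filterByExpr, Benjamini-Hochberg over all features, threshold 0.05) on windows and on sums within 100 kb. The sums added whole windows, so a tag in overlapping windows counted in each. Fits against input used tag totals as library sizes. Each standard error is the size of a log2 fold change divided by the root of its F. DESeq2 1.42.0, total-tag scaling, no filter, other distances, a replicate block and each library left out were alternatives, and the fits were checked on simulated data. A scaled copy of the table was not used.

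The members and lists were chosen with earlier results of these data known. Named were Rpsa, Rplp0, Rplp1, Rplp2, Rps6, Rps19, Rpl5 and Rpl11, paralog copies and their parents, X-linked members, called members, the 6 highest and 6 lowest by wild-type level, the 6 largest fold changes per direction, the 4 smallest p per direction in the sums, the 4 most variable, and the gene with the smallest p of each other list. Other genes were named after their values were seen. Results for 1 gene are counted in the totals but not reported here by name or drawn in the plots with gene labels.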

Additional observations from a re-analysis of the deposited data

How the results depend on the processing

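Between genotypes, no member window or member gene was called under any alternative run. The counts over all features moved more. Windows called between genotypes went from 24 to 70 with DESeq2, to 68 without the filter, to between 10 and 29 with a library left out, and to 0 relative to input (chosen after seeing the data, as was the pyrimidine search), where 2377 of 48432 had an unadjusted p under 0.05 and the median log2 fold change of all windows shifted to 0.20. Gene sums called went from 25 to 16 with total-tag scaling, 48 without the filter, 1 within 1 kb, and between 8 and 18 with a library left out. Calls against input went from 29707 to 7064 in wild type and from 32919 to 8787 in the knockout with TMM, and to between 12457 and 12766 and between 18967 and 19635 with a library left out, when fewer windows pass the filter. Member promoters called against input were 12 and 9 with TMM, and between 34 and 38 in wild type with a library left out. The knockout minus wild-type share of window tags was −0.0183 percentage points at promoters and −0.0265 within 100 kb. Correlations of deviations from group means ran from −0.013 to 0.0124 and showed no pairing by replicate number. They cannot exclude it, since wild-type replicate 1 held 0 Y-linked tags in both ChIP and input. The other wild-type inputs held 13 and 10. With a replicate block 15 gene sums and 21 windows were called, no member among them.

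Of 898 alternative values of 78 named features 840 kept their direction and 58 (28 features) reversed, all uncalled; the cause was not tested. Relative to input, promoter windows reversed at Rpl10 (0.10), Rpl10a (−0.32), Rpl11 (−0.63), Rpl22 (−0.46), Rpl37a (0.53), Rpl5 (1.00), Rplp1 (0.051), Rps10 (0.12), Rps19 (0.28) and Rpsa (0.11). Rpl5 reversed with the replicate block (0.13), the Rpl7l1 sum within 1 kb (0.11) and 20 kb (0.044), and the Rps14 sum with DESeq2 (−0.0027) and within 1 kb (−0.21). With a library left out, promoter windows ranged from −0.30 to 0.031 (Rpl10), −0.15 to 0.23 (Rpl10a), −0.18 to 0.13 (Rpl19), −0.16 to 0.58 (Rpl22), −0.12 to 0.32 (Rpl22l1), −0.52 to 0.34 (Rpl5), −0.24 to 0.21 (Rplp2), −0.36 to 0.12 (Rps19), −0.68 to 0.056 (Rps4x), −0.37 to 0.20 (Rps6) and −0.60 to 0.084 (Rpsa). Gene sums ranged from −0.27 to 0.070 (Rpl10a), −0.21 to 0.021 (Rpl19), −0.40 to 0.45 (Rpl22), −0.13 to 0.32 (Rpl22l1), −0.29 to 0.13 (Rpl5), −0.23 to 0.035 (Rpl7l1), −0.15 to 0.30 (Rplp2), −0.21 to 0.033 (Rps10), −0.13 to 0.11 (Rps14), −0.19 to 0.81 (Rps24), −0.67 to 0.052 (Rps4x), −0.38 to 0.20 (Rps6) and −0.59 to 0.079 (Rpsa). At these depths the 95% interval of the fold change reached beyond 1 log2 unit at 31 of 70.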
